A study of Mus musculus with 52 samples.

Results

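The myelin genes described here are Mag, Mog, Mbp, Mobp, Mal, Cnp, Tspan2, Ermn and Ugt8a, 9 of the 15692 genes in the count table, taken by gene symbol because they encode structural proteins or enzymes of central nervous system myelin and of mature oligodendrocytes. RNA was measured by sequencing in the frontal cortex of 52 mice by the labels, which give each library its own title but do not say outright that each is a separate animal, so p-values measure the spread between these libraries. All animals carried the APP/PS1ΔE9 transgenes, which drive amyloid plaque formation, and human APOE4 (APP/E4) or human APOE3 (APP/E3) in both copies in place of the mouse gene. They were fed a high-fat Western diet (HFD, 40% of calories from milk fat and corn oil) or a normal diet (ND). The groups were APP/E4 HFD females (n = 7) and males (n = 5), APP/E4 ND females (n = 7) and males (n = 6), APP/E3 HFD females (n = 8) and males (n = 6), and APP/E3 ND females (n = 7) and males (n = 6). Feeding started when the mice were 3.5 months old on average and lasted 3 months, and behaviour was tested at 14.7 months on average, with no age given per animal. No group without the APP/PS1ΔE9 transgenes was included, so every comparison is between amyloid-bearing animals.

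Oligodendrocytes wrap axons in many layers of membrane, and the compact layers are held together by basic proteins and proteolipids in a membrane rich in galactolipids. Mbp and Mobp encode basic proteins that bind the cytoplasmic faces of compact myelin, and Mal a proteolipid of lipid-rich membrane domains. Mag and Mog encode immunoglobulin-like surface proteins, Mag on the innermost wrap facing the axon and Mog on the outermost surface of the sheath. Cnp encodes a cyclic nucleotide phosphodiesterase of non-compact myelin, Ermn an actin-binding protein of late oligodendrocytes, Tspan2 a tetraspanin of the myelin membrane, and Ugt8a the galactosyltransferase that makes galactocerebroside. Transcription of such genes in oligodendrocytes is known to be driven by Olig2, Sox10 and Myrf. In cortex, myelinated fibres are denser in deep layers and in the white matter below than in upper layers.

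The promoters are shown as a description of sequence. Any link between them and how the genes moved between libraries was not tested. From the promoter table of RefSeq (build GRCm38.p6, 250 bases before to 50 after a transcript start), 11 windows for 8 of the 9 genes were used. Mbp was left out of the search by its chromosome, so matches in its promoter are not reported here. The windows of all genes used for comparison were not cut in this way. The windows below, each of 300 bases and read 5′ to 3′ on the gene's strand, are a window of Mag and those of Cnp, Mog, Ermn and Mobp. Capitals mark matches, on either strand, to CTGGCAC or CTGGTAC (searched as the Myrf motif) and to ACAAAG or ACAATG (searched as the Sox10 motif).
Mag, chr7:30914873-30915172, minus strand: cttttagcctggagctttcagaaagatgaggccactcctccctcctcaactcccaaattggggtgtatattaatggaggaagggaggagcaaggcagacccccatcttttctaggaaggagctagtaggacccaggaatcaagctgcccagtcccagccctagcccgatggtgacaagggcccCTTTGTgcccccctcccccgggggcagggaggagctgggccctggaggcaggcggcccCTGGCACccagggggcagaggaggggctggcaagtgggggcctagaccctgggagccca
Cnp, chr11:100574689-100574988, plus strand: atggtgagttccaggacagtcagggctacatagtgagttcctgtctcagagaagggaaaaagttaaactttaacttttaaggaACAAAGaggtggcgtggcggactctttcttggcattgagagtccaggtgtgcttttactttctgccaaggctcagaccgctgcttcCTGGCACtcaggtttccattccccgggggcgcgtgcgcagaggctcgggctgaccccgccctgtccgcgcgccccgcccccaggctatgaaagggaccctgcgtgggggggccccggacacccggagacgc
Mog, chr17:37023349-37023648, minus strand: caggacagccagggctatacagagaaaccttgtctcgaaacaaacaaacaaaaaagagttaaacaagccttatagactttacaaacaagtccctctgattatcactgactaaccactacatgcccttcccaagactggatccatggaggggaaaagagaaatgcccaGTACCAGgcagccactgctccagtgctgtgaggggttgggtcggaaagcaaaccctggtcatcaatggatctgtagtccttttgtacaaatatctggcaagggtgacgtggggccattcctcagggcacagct
Ermn, chr2:58052815-58053114, minus strand: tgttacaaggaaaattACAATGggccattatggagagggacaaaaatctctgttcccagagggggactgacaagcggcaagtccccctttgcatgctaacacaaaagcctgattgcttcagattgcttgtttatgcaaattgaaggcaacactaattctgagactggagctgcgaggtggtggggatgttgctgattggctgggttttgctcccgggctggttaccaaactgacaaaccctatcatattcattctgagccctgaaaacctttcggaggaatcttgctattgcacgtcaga
Mobp, chr9:120149492-120149791, plus strand: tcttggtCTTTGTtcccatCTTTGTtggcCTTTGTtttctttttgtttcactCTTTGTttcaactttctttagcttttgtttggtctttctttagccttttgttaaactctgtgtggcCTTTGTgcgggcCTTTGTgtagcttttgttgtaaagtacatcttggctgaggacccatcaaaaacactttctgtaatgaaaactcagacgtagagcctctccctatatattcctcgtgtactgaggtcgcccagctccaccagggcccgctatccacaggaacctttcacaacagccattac

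The Myrf letters were in windows of 3 of the 8 genes (Mag, Cnp and Mog). Counted by window they were in 4 of 11, against 7.096% of 32851 mouse promoter windows of the same length. The Sox10 letters were in windows of 5 of the 8 (Mag, Cnp, Ermn, Mobp and Tspan2), and the Mobp window held 6 matches. Counted by window they were in 6 of 11, against 28.6% of all windows. The letters CAGCTG or CAGATG, searched as the Olig2 motif, were in a window of Tspan2 alone among the 8. That is 1 of 11 windows, against 30.57% of all windows. Overlapping windows of Mag hold the same matches, so the windows are not all separate. None of the motifs shares a base with another match in the windows shown, and a match is a description of the sequence, not a bound site.

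All 9 genes passed the filter on low counts, and no library was without reads for any of them: the lowest count was 93, for Mog. Total counts were 39.4 M (megareads) in APP/E3 ND male 5 and 5.34 M to 13.1 M in the other 51 libraries. Reads of the 9 genes made up 0.0847% to 0.487% of a library's counts, with a median of 0.216%. Values below are CPM, read counts brought to a common library total with scaling by the trimmed mean of M values, and differences are log2 estimates from edgeR's quasi-likelihood fit of all 15195 genes that passed the filter, called at a Benjamini-Hochberg adjusted p under 0.05. The CPM are not divided by transcript length, so levels of different genes are not compared. Of the 52 libraries, 11 from females had Csl at 0.0936 to 1.15 CPM and Rps10 at 17.8 to 25.0 CPM (read class 2), and the other 41 had Csl at 10.7 to 18.2 CPM and Rps10 at 1.49 to 5.93 CPM (read class 1). The classes were drawn from these reads and not from the labels. Read class 2 held 2 of 7 APP/E4 HFD females, 2 of 7 APP/E4 ND females, 5 of 8 APP/E3 HFD females and 2 of 7 APP/E3 ND females.

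Markers of cortex and of tissue next to it were measured to check the labelled frontal cortex. Slc17a7, the vesicular glutamate transporter of cortical excitatory neurons, had 972 to 1999 CPM in the 52 libraries, and Mbp 465 to 2785 CPM. Schwann cell genes summed to 63.6 to 125 CPM in APP/E4 and 50.8 to 113 CPM in APP/E3 libraries. Most of that sum came from Sox10 (mean 38.1 CPM), which oligodendrocytes also express, Pmp22 (25.1 CPM) and Egr2 (17.3 CPM), while Prx averaged 1.37 CPM and Dhh 0.247 CPM, with Dhh at 0 in 11 libraries. Genes of the striatum, which lies under frontal cortex and whose fibre bundles are myelinated, were present in every library: the summed level of 13 of them was 412 to 3444 CPM in APP/E4 and 421 to 3745 CPM in APP/E3. Other neighbouring tissue differed between libraries as well. The sum of 8 olfactory genes was 31.8 to 1324 CPM in APP/E4 and 53.9 to 467 CPM in APP/E3, and that of 9 choroid plexus genes 240.1 to 1328 CPM in APP/E4 and 205 to 3745 CPM in APP/E3. The sum of 12 genes of thalamus and hippocampus was 161 to 487 CPM in APP/E4 and 164 to 773 CPM in APP/E3.

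Estimates for the myelin genes lay above 0 in APP/E4 relative to APP/E3 cortex, by modest amounts and with overlapping ranges. Averaged over diet and sex, all 9 genes had a higher estimate in APP/E4, and 4 were called higher: Mag, Ugt8a, Tspan2 and Ermn. Over all genes tested, 6.79% were called in this comparison, 3.39% as higher and 3.4% as lower. The 9 genes were chosen with earlier results of these data known, so setting their calls against that share is not an independent test. The median estimate was 0.29 over the 9 genes and -0.0001 over all genes. The 9 genes moved together between libraries, as described further on, so their shared direction does not count as 9 separate results. In bulk tissue, more oligodendrocytes or myelinated fibres in the piece and more RNA per oligodendrocyte cannot be told apart.

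Of the surface proteins, Mag had 105 CPM in the lowest APP/E4 library, a median of 149.8 and 307 in the highest (n = 25), against 45.7, 114 and 259.6 in APP/E3 libraries (n = 27). The mean was 157 ± 39.2 CPM in APP/E4 and 119 ± 40.7 CPM in APP/E3 (SD). Values overlapped, with 24 of 25 APP/E4 libraries above the APP/E3 median and 4 of 27 APP/E3 libraries above the APP/E4 median. The estimate for Mag was 0.38 ± 0.11 on the log2 scale (SE; 29.7% higher; edgeR adjusted p = 0.0361). Mog, on the outer face of the sheath, had 31.0, 44.2 and 104 CPM (lowest, median, highest) in APP/E4 and 13.2, 35.9 and 72.4 CPM in APP/E3. Its estimate was 0.33 ± 0.12 (edgeR adjusted p = 0.0680), which missed the threshold.

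Ugt8a, the galactolipid enzyme, had 39.6, 55.3 and 110.5 CPM (lowest, median, highest) in APP/E4 libraries and 25.9, 46.3 and 77.8 CPM in APP/E3 libraries. Of the APP/E4 libraries, 23 of 25 lay above the APP/E3 median, and the log2 estimate was 0.31 ± 0.09 (1.24-fold; edgeR adjusted p = 0.0300). Tspan2 had 71.6, 104 and 189.9 CPM in APP/E4 and 46.3, 87.3 and 147 CPM in APP/E3. The tetraspanin's estimate was 0.29 ± 0.09 (1.22-fold; edgeR adjusted p = 0.0388), with 22 of 25 APP/E4 libraries above the APP/E3 median. Ermn, the actin-binding member, had 46.6, 66.6 and 157 CPM in APP/E4 and 20.8, 54.5 and 111 CPM in APP/E3. Its log2 estimate was 0.35 ± 0.11 (1.28-fold; edgeR adjusted p = 0.0480), and 23 of 25 APP/E4 libraries lay above the APP/E3 median.

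The basic proteins and proteolipid of compact myelin had the smaller estimates and were not called. Mbp had 976, 1226 and 2785 CPM (lowest, median, highest) in APP/E4 and 465, 1069 and 2055 CPM in APP/E3, a log2 estimate of 0.25 ± 0.10 (edgeR adjusted p = 0.139). Mobp had a median of 145 CPM in APP/E4 and 125 CPM in APP/E3 (0.26 ± 0.11, adjusted p = 0.151). Mal, with a median of 195 CPM in APP/E4 and 167 CPM in APP/E3, had the lowest estimate of the 9, 0.19 ± 0.10 (adjusted p = 0.292), and its 95% interval was -0.02 to 0.39. Cnp of non-compact myelin had medians of 262 CPM in APP/E4 and 235 CPM in APP/E3 (0.27 ± 0.10, adjusted p = 0.0779). Differences between the 9 estimates were not tested, and their 95% intervals all overlap.

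**Figure D1:**
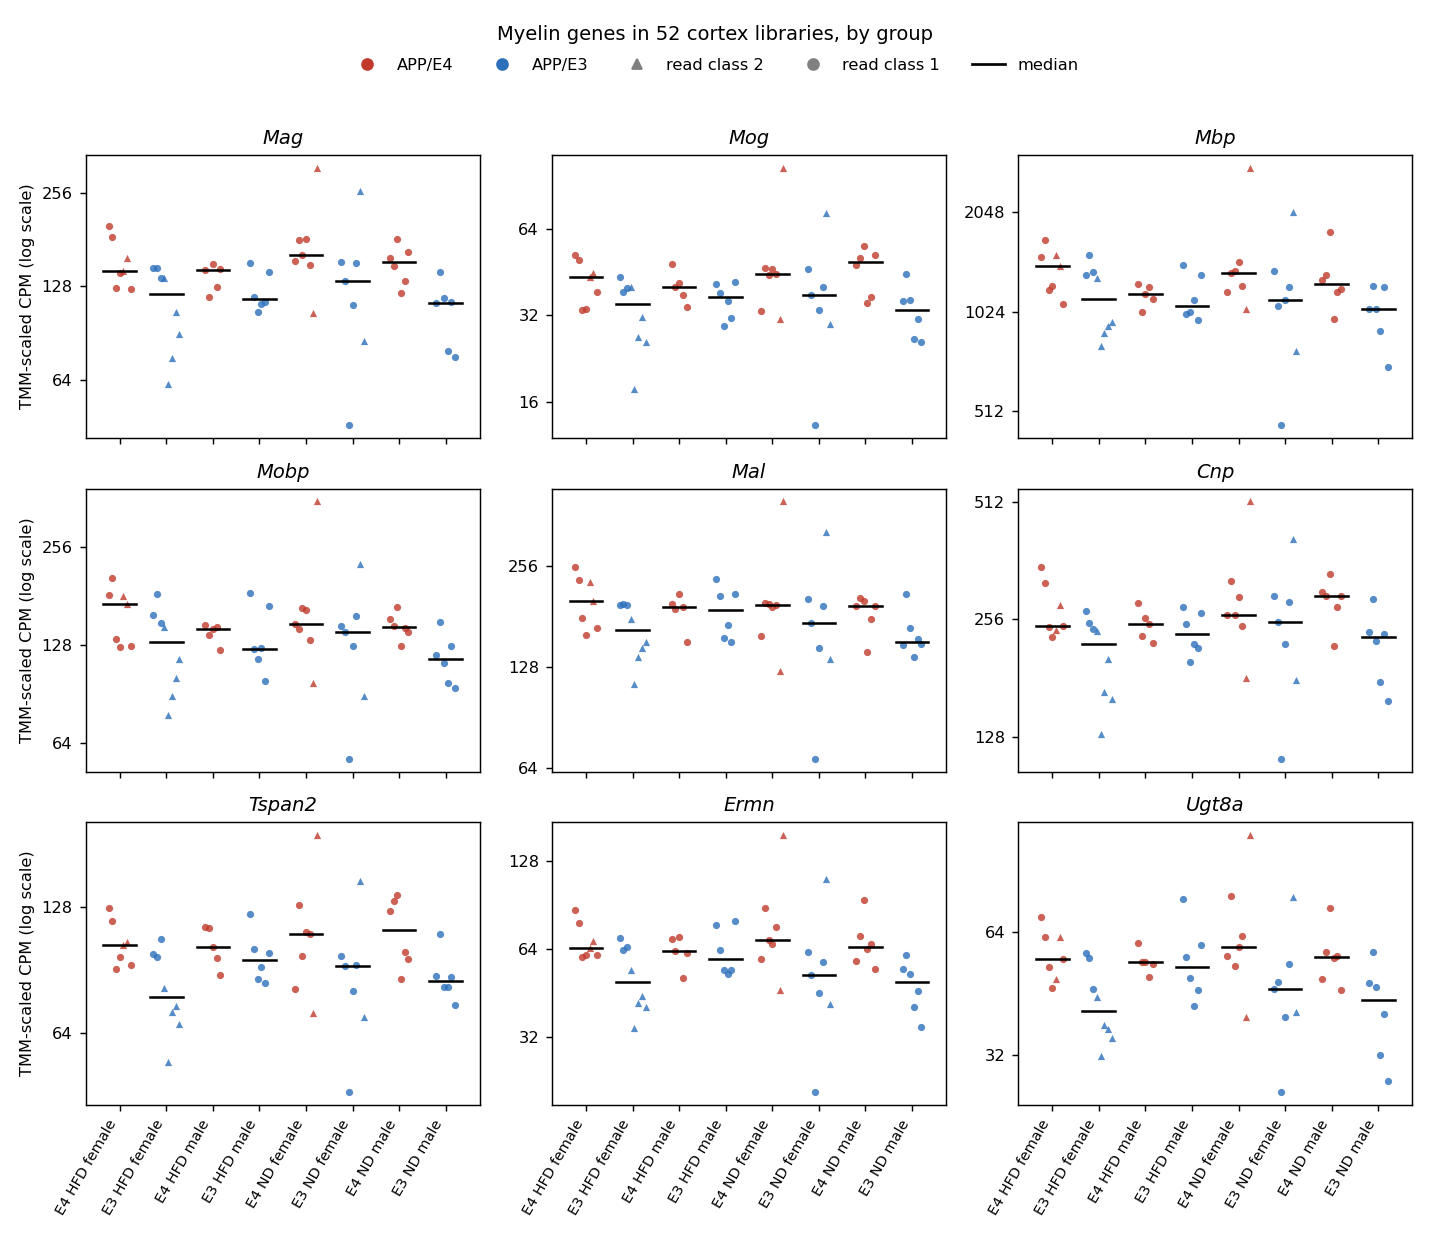
TMM-scaled CPM of each myelin gene in every library (log axis), by genotype (E4 red, E3 blue), diet and sex; triangles are read class 2, dots read class 1 and bars group medians. The groups overlap for every gene, and single ND female libraries lie far above or below the rest.

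The calls changed when single libraries were left out. With each of the 52 libraries left out in turn, all 9 estimates stayed above 0, and the number called ran between 0 and 7. It was 0 without APP/E4 ND male 1, and 1 without APP/E4 HFD female 2, without APP/E4 HFD female 5, and without the high library APP/E4 ND female 7. It was 2 without any of 13 others: APP/E4 HFD males 1, 2 and 5, APP/E4 ND female 2, APP/E4 ND male 5, APP/E3 HFD female 2, APP/E3 HFD males 1, 2 and 3, APP/E3 ND female 7 and APP/E3 ND males 1, 3 and 4. It was 7 without APP/E3 ND female 4. Each of the 4 calls was lost without some library: Ugt8a in 1 of the 52 refits, Mag in 6, Tspan2 in 16 and Ermn in 34.

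Read class and genotype were unevenly crossed. Within read class 1 (21 APP/E4 and 20 APP/E3 libraries), Mag remained called and the other 3 were not, with log2 estimates of 0.26 for Ugt8a (edgeR adjusted p = 0.0575), 0.28 for Ermn (0.0570) and 0.22 for Tspan2 (0.0737). Read class 2 was not fitted alone. There the median of Mag was 151 CPM in 4 APP/E4 libraries and 89.7 CPM in 7 APP/E3 libraries. In read class 1 the median was 149.8 CPM in APP/E4 and 118 CPM in APP/E3.

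Within single strata of diet and sex, none of the 9 genes was called between APP/E4 and APP/E3 by edgeR, DESeq2 or limma voom. In HFD females all 9 estimates were above 0, with a median of 0.37 and 4 unadjusted edgeR p under 0.05 (0.605% of all genes called, 0.369% as higher and 0.237% as lower). In HFD males the median was 0.03, 7 estimates were above 0 and none had an unadjusted p under 0.05 (0.224% called, 0.171% as higher and 0.0526% as lower). In ND females the median was 0.35 and 2 genes had an unadjusted p under 0.05 (0.961% called, 0.434% as higher and 0.526% as lower), and in ND males it was 0.38 with 3 such genes (0.401% called, 0.191% as higher and 0.211% as lower). The difference between strata was tested as an interaction: with diet it was -0.30 to -0.06 and with sex 0.04 to 0.23 over the 9 genes (log2), and edgeR, DESeq2 and limma voom called none of the 9. No gene had an unadjusted edgeR p under 0.05 in either interaction, where 0% and 0.00658% of all genes were called. In read class 1 alone the interaction with diet was -0.50 to -0.22, and that with sex -0.13 to 0.12, again with no call. Without APP/E3 ND female 4, 2 of the 9 genes were called in ND females.

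The HFD female estimate was examined against the read classes in 2 ways. With read class as a term on all libraries it was as large, with a median of 0.39 over the 9 genes, a range of 0.30 to 0.46 and no call. In read class 1 alone, 5 APP/E4 HFD females against 3 APP/E3 HFD females gave a median of 0.06 over the 9 genes, with a range of -0.08 to 0.13. No gene was called there either. In ND females the median was 0.33 within read class 1, and 0.19 over all ND females without the 3 libraries named below.

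Mag by group had 125, 144 and 200.3 CPM (lowest, median, highest) in APP/E4 HFD females and 118, 128, 144, 145 and 151 CPM in the 5 APP/E4 HFD males. It had 105, 161 and 307 CPM in APP/E4 ND females and 122, 153 and 182 CPM in APP/E4 ND males. In APP/E3 it had 61.9, 120.5 and 147 CPM in HFD females, 106, 116 and 152 CPM in HFD males, 45.7, 133 and 259.6 CPM in ND females and 75.7, 113 and 143 CPM in ND males. All 4 APP/E4 medians lay above all 4 APP/E3 medians, and both ND female groups were the widest. The group means of log2 CPM, ordered for each gene, put APP/E4 ND females first for 6 of the 9 genes. APP/E3 ND males came last for 6 and APP/E3 HFD females for 3. None of the 63 steps between neighbours in these orders exceeded the pooled SD of the 2 neighbouring groups, and the largest was 0.824 of that SD (Mag). Ordering the means makes such steps small, so they describe the order and do not test whether groups differed.

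The 3 other called genes had the same layout. Ugt8a had 46.7, 54.8 and 69.5 CPM (lowest, median, highest) in APP/E4 HFD females and 49.5, 53.4, 53.9, 54.1 and 60.03 CPM in the APP/E4 HFD males. It had 39.6, 58.6 and 110.5 CPM in APP/E4 ND females and 46.2, 55.6 and 73.4 CPM in APP/E4 ND males. In APP/E3 it had 31.8, 41.01 and 56.9 CPM in HFD females, 42.1, 52.5 and 76.9 CPM in HFD males, 25.9, 46.5 and 77.8 CPM in ND females and 27.6, 43.6 and 57.0 CPM in ND males. The APP/E3 HFD male median came closest to the APP/E4 medians. Ermn had 60.3, 64.7 and 87.3 CPM in APP/E4 HFD females, 51.3, 62.2, 63.2, 69.5 and 70.7 CPM in APP/E4 HFD males, 46.6, 68.8 and 157 CPM in APP/E4 ND females and 54.7, 65.3 and 94.3 CPM in APP/E4 ND males. In APP/E3 it had 34.4, 49.5 and 70.0 CPM in HFD females, 52.9, 59.2 and 80.0 CPM in HFD males, 20.8, 52.1 and 111 CPM in ND females and 34.8, 49.5 and 61.0 CPM in ND males. Of these, APP/E3 HFD females and ND males had the low medians. Tspan2 had medians of 104, 103, 110.2 and 112 CPM in APP/E4 HFD females, HFD males, ND females and ND males, and of 78.2, 95.5, 92.6 and 84.995 CPM in the same groups of APP/E3. For all 3 genes the 4 APP/E4 medians lay above the 4 APP/E3 medians.

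**Figure D2:**
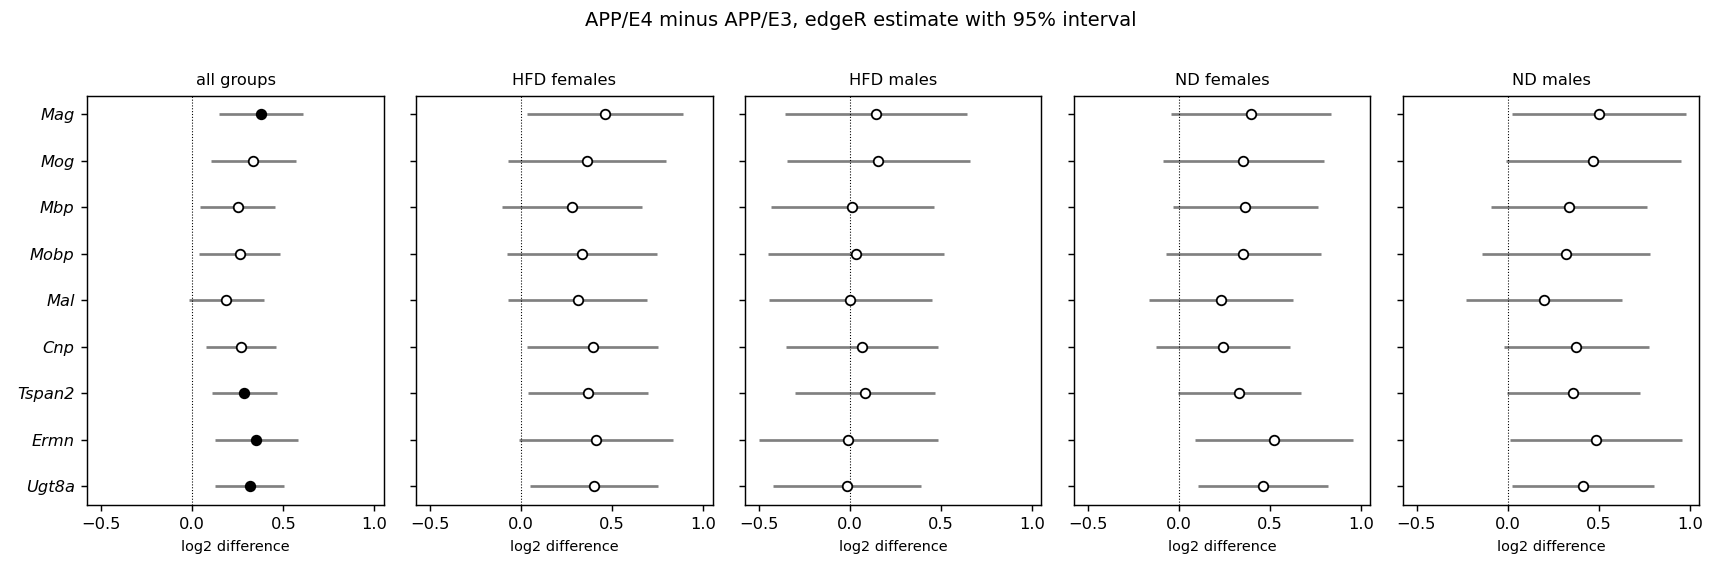
Log2 difference of APP/E4 minus APP/E3 for each myelin gene with its 95% interval (edgeR), over all groups and within each stratum of diet and sex; filled points were called. The estimates over all groups run between 0.19 and 0.38, and those in HFD males lie near 0.

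High-fat feeding did not move the myelin genes by an amount this design could call. Averaged over genotype and sex, the log2 difference of HFD minus ND was -0.15 to 0.02 over the 9 genes, and the widest 95% intervals ran between -0.38 and 0.23. edgeR called none of the 9 and none of all genes tested (0%), with 1398 genes at an unadjusted p under 0.05, none of them among the 9. DESeq2 called 2 genes in all and limma voom none, and neither called any of the 9. Mbp had a mean of 1203 ± 224 CPM in HFD libraries and 1242 ± 443 CPM in ND libraries (SD, n = 26 each). Mag had 131 ± 29.9 CPM in HFD libraries and 143 ± 54.2 CPM in ND libraries. The estimates were below 0 for 8 of 9 genes, and above 0 for all 9 in read class 1 alone, so their direction depended on which libraries entered.

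By stratum, the estimates of HFD minus ND were below 0 for all 9 genes in APP/E4 females (median -0.13) and for 8 of 9 in APP/E4 males (-0.12). They were below 0 for all 9 in APP/E3 females (-0.14; 0.0263% of all genes called, all as lower) and above 0 for all 9 in APP/E3 males (0.21). None was called, no unadjusted edgeR p was under 0.05, and in the other 3 strata 0% of all genes were called. The interaction of diet and sex called none of the 9 genes, or of all genes (0%). The largest estimate was that of Ermn in APP/E3 males, with 52.9, 59.2 and 80.0 CPM (lowest, median, highest) in HFD and 34.8, 49.5 and 61.0 CPM in ND. Its log2 estimate was 0.39 ± 0.23 (edgeR adjusted p = 0.457, and 0.297 to 0.461 under the other settings). In APP/E3 females read class 1 alone turned the direction, with a median of 0.30 over the 9 genes, and in APP/E4 females it gave -0.11 to 0.08. These comparisons share their groups with the genotype comparisons above.

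Of the 44 other myelin genes, 7 had a higher estimate in HFD than in ND and none was called. Among the most abundant were Tppp at 0.04 ± 0.05 (edgeR adjusted p = 0.836), Fth1 at -0.0023 ± 0.06 (0.997), Enpp2 at 0.28 ± 0.13 (0.511) and Nfasc at 0.05 ± 0.04 (0.747), the node and paranode adhesion protein. All 13 striatal genes had a lower estimate in HFD, with none called (median -0.20).

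In the authors' deposited table, none of the 9 genes had an unadjusted p under 0.05 for diet. In the authors' deposited table the log2 coefficient was 0.0737 for Mag and -0.0109 for Mbp, and over the 9 genes it ran between -0.0529 (Mal) and 0.117 (Mog). Over 15195 genes the authors' deposited coefficient correlated at -0.873 with HFD minus ND computed here, so it was read as ND minus HFD.

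**Figure D3:**
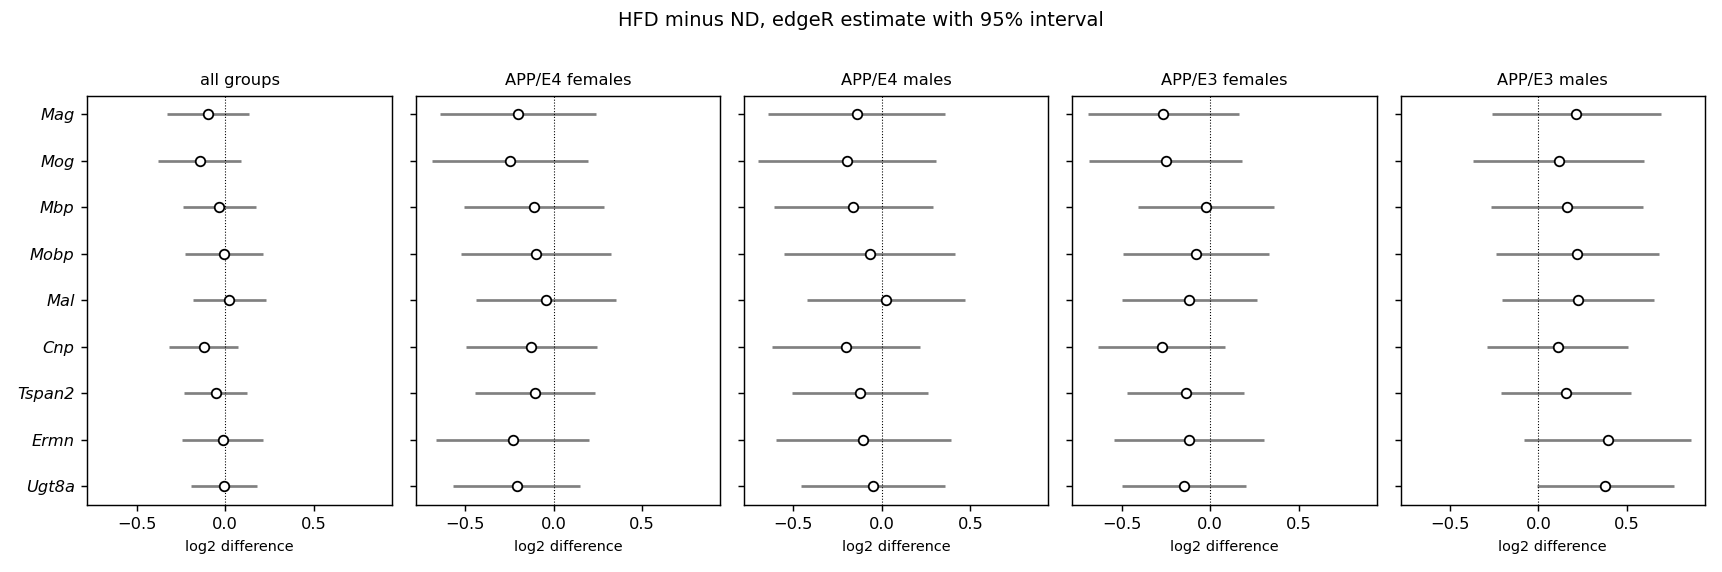
Log2 difference of HFD minus ND for each myelin gene with its 95% interval (edgeR), over all groups and within each genotype and sex; no point was called. The intervals over all groups span 0 for every gene, and the APP/E3 male estimates lie on the other side of 0 from the female ones.

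Females and males did not differ by a callable amount. Over genotype and diet, 8 of 9 estimates of female minus male were above 0, between -0.05 for Tspan2 and 0.15 for Mbp, and edgeR, DESeq2 and limma voom called none (4.42% of all genes were called, 2.91% as higher and 1.51% as lower). Without the 3 ND female libraries at the ends of the range, 3 of the 9 were above 0. No myelin gene had an unadjusted edgeR p under 0.05. Mbp had a median of 1226 CPM in females (n = 29) and 1162 CPM in males (n = 23). The spread was wider in females: the coefficient of variation of Mog was 40.5% in females and 20.6% in males, and that of Tspan2 29.5% in females and 17.1% in males. Over the 9 genes it was 19.2% to 24.1% in females of read class 1, against 15.4% to 21.5% in males. The difference in spread was not tested.

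Libraries differed in myelin RNA more than groups did, and the 9 genes went up and down together. The highest library had between 4.11 times (Tspan2) and 7.87 times (Mog) the CPM of the lowest. With group means removed, the SD of log2 CPM was 0.32 to 0.43 for the 9 genes, against a median of 0.209 over all genes. Among the 499 or 500 genes nearest in abundance to each, between 6 (Mag) and 27 (Ugt8a) had a larger SD. The 8 groups took 11.8% (Mal) to 31.1% (Ugt8a) of each gene's variance, against a median of 18.1% over all genes.

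The same 3 libraries, all ND females, were at the ends. APP/E4 ND female 7 was the highest of 52 for all 9 genes, with 2785 CPM of Mbp, 307 of Mag and 104 of Mog. APP/E3 ND female 4 was second for 8 of the 9, with 2055, 259.6 and 72.4 CPM. APP/E3 ND female 3 was the lowest for all 9, with 465, 45.7 and 13.2 CPM. Relative to their group means they were at 1.96-fold, 1.92-fold and 0.451-fold over the 9 genes. Both high libraries were of read class 2 and the low one of read class 1.

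Marker lists of other cells moved in these libraries too, by mean log2 deviations from the group. The 44 other myelin and mature oligodendrocyte genes were at 0.67, 0.67 and -0.74 in APP/E4 ND female 7, APP/E3 ND female 4 and APP/E3 ND female 3. The 18 oligodendrocyte precursor genes were at -0.15, -0.05 and -0.05, close to their group means. The 13 striatal genes were at 0.93, -0.69 and -1.81, and the 12 mural and meningeal genes at -0.55, -0.46 and 0.60. The 8 olfactory genes were lower in all 3, at -2.17, -1.59 and -1.05. The 9 choroid plexus genes had the same signs as the myelin genes, at 0.89, 0.23 and -0.45. The part of these other tissues in the result was not tested. Without the 3 libraries, the genotype comparison called 6 of the 9 genes, with Mog at 0.28 (edgeR adjusted p = 0.0213) and Cnp at 0.23 (0.0460) added. The share of all genes called in that refit is not reported here.

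**Figure D4:**
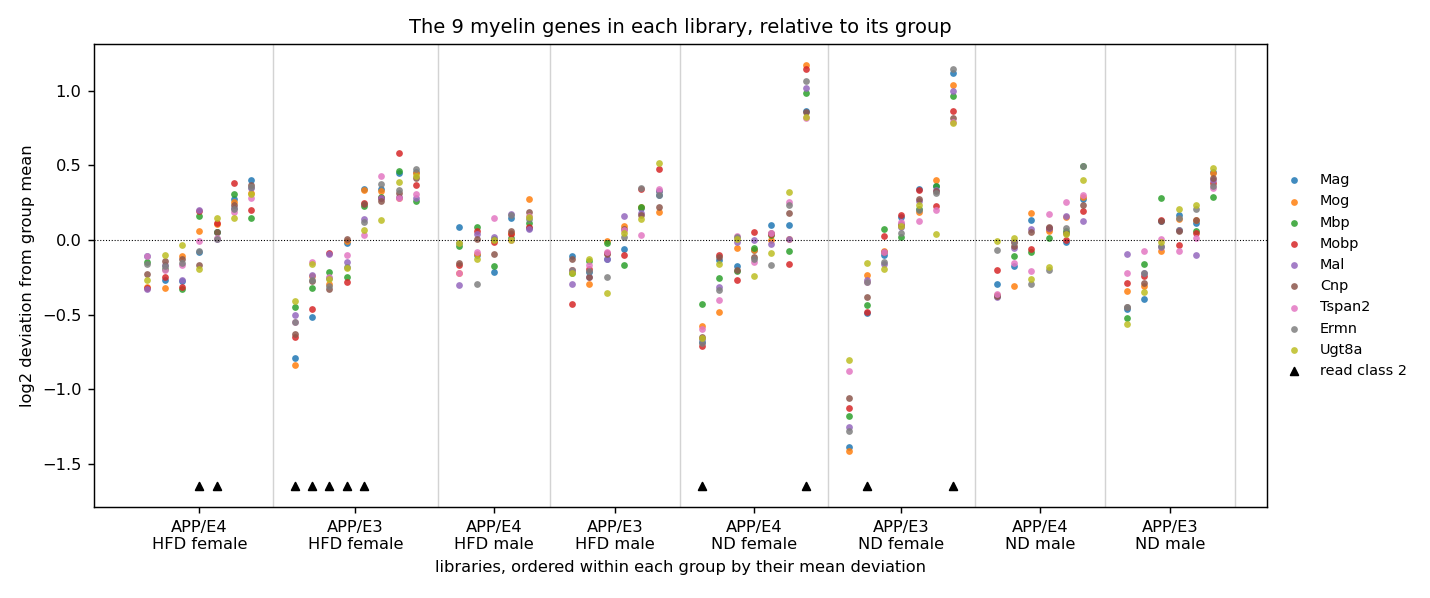
Log2 deviation of each myelin gene from its group mean, for every library, ordered within each group by the mean over the 9 genes; black triangles mark read class 2. The 9 genes of a library cluster, and 3 ND female libraries lie about 1 log2 unit from their group mean.

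In 33 of the 52 libraries all 9 genes lay on the same side of their group mean, above it in 17 and below it in 16. Across libraries, with group means removed, the 36 pairs of genes had Pearson correlations of 0.83 (Mal with Ugt8a) to 0.97 (Mag with Cnp), with a median of 0.92, and Spearman correlations of 0.73 to 0.95 (n = 52). Without the 3 libraries the Pearson values were 0.72 to 0.95, and in read class 1 alone 0.71 to 0.96. The genes share a library's reads, so these values are given as a description. Ratios between genes were steadier than levels: the SD of log2 Mag minus log2 Mbp was 0.15, against 0.38 for Mbp itself. For Ugt8a minus Mbp it was 0.21, for Ermn minus Mbp 0.17 and for Mog minus Mbp 0.17.

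Outside the 9, the 10 genes most like them across the 52 libraries, by Pearson correlation with their mean deviation, included Tmem88b (0.96), Gpr37 (0.96), an oligodendrocyte receptor, and Cldn11 (0.96), the claudin of myelin tight junctions. They also included Gatm (0.94), an enzyme of creatine synthesis, Ttyh2 (0.94), Anln (0.94), Gjc3 (0.93), an oligodendrocyte connexin, Arsg (0.93), a lysosomal sulfatase, and Trf (0.92), the iron carrier transferrin. A correlation above 0.8 was found for 24 of the 44 other myelin genes, and for 61 of all 15186 genes tested outside the 9. The 44 were not all alike: Tppp, a tubulin-binding protein, stood at -0.08, Apod at 0.29 and Fth1, the ferritin heavy chain, at 0.33.

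Lists of genes differed in how closely they followed the 9. The mean deviation of the 44 other myelin genes correlated at 0.97 with that of the 9 (Spearman 0.95). It was 0.96 without the 2 libraries farthest from that list's median, which were chosen for each list separately. For 15 oligodendrocyte lineage regulators the correlation was 0.72 (Spearman 0.79, and 0.71 without that list's own 2 libraries). For 18 precursor genes it was 0.24 (0.33, and 0.18). Striatal genes stood at 0.57 (0.65, and 0.56), higher than any list outside the lineage. Without the 3 ND female libraries at the ends, these lists stood, in the same order, at 0.96, 0.81, 0.41 and 0.68. Excitatory neuron genes were at -0.05, astrocyte genes at -0.17, microglia genes at -0.10 and mural and meningeal genes at -0.27. All of these share libraries and depth, and no p was computed.

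**Figure D5:**
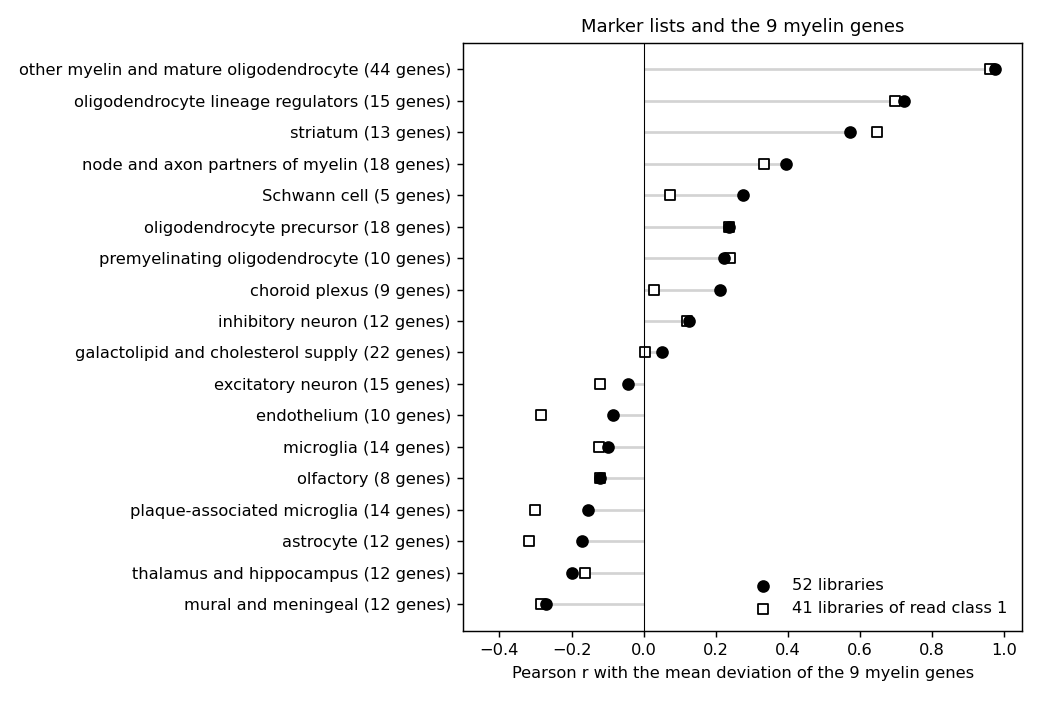
Pearson correlation, across libraries and with group means removed, between each marker list and the mean deviation of the 9 myelin genes; dots are all 52 libraries and squares the 41 of read class 1. Mature myelin genes stand highest, then lineage regulators and striatal genes, with precursors well below.

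The rest of the myelin program followed the 9 genes between genotypes in part. Of the 44 other myelin and mature oligodendrocyte genes, 39 had a higher estimate in APP/E4 than in APP/E3 (median 0.19). edgeR called 6 of the 44 higher, against 3.39% of all genes tested. Bcas1, a marker of myelinating oligodendrocytes, was called at 0.39 ± 0.10 (adjusted p = 0.00942), Plekhh1 at 0.34 ± 0.10 (0.0391) and the receptor Gpr37 at 0.31 ± 0.10 (0.0418). Mcam, also a gene of vessel walls, was at 0.26 ± 0.08 (0.0405), Cd9, a tetraspanin that plaque microglia also express, at 0.21 ± 0.05 (0.0121), and Car2, a carbonic anhydrase, at 0.18 ± 0.05 (0.0284). Tppp was at 0.05 ± 0.05 (0.609) and was not called.

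Regulators and precursors held 1 call between them. Between APP/E4 and APP/E3, 6.79% of all genes tested were called, so 1 call in a list of 18 is near that share. None of 15 lineage regulators was called (10 higher, median 0.02): Myrf, which drives myelin genes and stands on both lists, was at 0.30 ± 0.10 (edgeR adjusted p = 0.0707), Sox10 at 0.11 ± 0.08 (0.423) and Olig2 at 0.07 ± 0.08 (0.680). Of 18 precursor genes 1 was called, Fyn at 0.74 ± 0.05 (4.91e-17), a kinase that neurons and other cells also express. Pdgfra, the growth factor receptor that defines precursors, was at 0.03 ± 0.06 (0.797), and Cspg4 at -0.01 ± 0.07 (0.941). Of 18 genes of the node and of axons, 15 had a higher estimate and 1 was called, Sptbn4, the spectrin of nodes, as lower at -0.21 ± 0.04 (0.00123).

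Of genes that make the lipids of myelin, the list of 23 tested for galactolipids and cholesterol had 12 higher and 11 lower. Ugt8a was its only call, where 6.79% of all genes tested were called. Fa2h, which hydroxylates the fatty acids of galactolipids, was at 0.21 ± 0.10 (edgeR adjusted p = 0.213), and Gal3st1, which sulfates galactocerebroside, at -0.10 ± 0.08 (0.483). The difference between Ugt8a and these neighbours in the pathway was not tested.

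Markers of other cells also moved between the genotypes. The share called over all genes tested was 3.39% as higher and 3.4% as lower. Of 14 plaque-associated microglia genes 8 were called higher in APP/E4 (12 higher, median 0.21), and their summed level was 442 to 785 CPM in APP/E4 and 432 to 624 CPM in APP/E3. Striatal genes had 2 of 13 higher, olfactory genes 7 of 8 and choroid plexus genes 3 of 9, with none called. Of 5 Schwann cell genes tested 1 was called, Pmp22 at 0.27 ± 0.05 (edgeR adjusted p = 0.000374), which brain vessels and neurons also express. Excitatory neuron genes had 6 of 15 higher with none called, among them Slc17a7 at -0.17 ± 0.06 (0.0568) and Camk2a at -0.09 ± 0.07 (0.513). Of 14 microglia genes 3 were called higher (13 higher, median 0.10). The part of any of these in the myelin difference was not tested.

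Read class 2 libraries were set against read class 1 with the groups in the model, and none of the 9 genes was called by edgeR or DESeq2, where edgeR called 22.8% of all genes. No unadjusted p was under 0.05, and 8 of 9 estimates were above 0, between -0.01 and 0.17. Without the 3 libraries at the ends, 8 of the 9 were called lower in read class 2, at -0.46 for Mag (edgeR adjusted p = 0.00392) to -0.29 for Mal (0.0338), and Mog was not called (0.0558). The share of all genes called in that refit is not reported here. Since both high libraries were of read class 2 and the low one of read class 1, leaving them out moves the values that way by construction. With all 52 libraries, 7 of 18 precursor genes and 6 of 13 striatal genes were called lower in read class 2, against 11.3% of all genes.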

How the data were processed

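Raw counts of reads by gene were deposited by the authors for 52 libraries; Subread, featureCounts, limma, edgeR 3.14.0 and build mm9 are named per the submitters' processing notes. The annotation, the strand setting and the handling of multiply matching reads are not stated in any source used. The deposited table also holds the authors' log2 coefficient and unadjusted p-value per gene for diet, used only where named. Samples were grouped by genotype, diet and sex from the labels, and 0 columns belonged to other samples. Replicate numbers follow the deposit order.

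Gene IDs were matched to RefSeq for 15448 of 15692 genes, and 24 symbols turned into dates were restored from their IDs. Counts were scaled by the trimmed mean of M values and filtered with filterByExpr over the 8 groups, which removed 497 genes. edgeR 4.0.16 in R 4.3.3 fitted robust quasi-likelihood models (each of the 8 groups had its own mean) over 52 libraries. There were 15 comparisons, each adjusted over 15195 genes. The comparison of read classes came from a separate fit with read class added as a term. Alternatives were DESeq2 1.42.0, limma voom 3.58.1, no filter, terms for read class and title style, read class 1 alone, leaving out each library and, chosen after seeing the data, leaving out 3 libraries. The fit was tested on simulated counts with independent genes, the same dispersion for every gene and no library set apart. That test does not bear on how these calls change between sets of libraries. Residuals are log2 CPM (prior count 2) minus the group mean.

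The myelin genes and the marker lists were chosen with earlier results of these data known. The rule for named genes takes all 9, the other myelin genes called in a contrast or otherwise the 5 of largest mean CPM, the 10 most correlated genes, and the 2 most abundant genes of other lists. Some genes it takes are not reported here. Outside it, Tppp in the genotype comparison, Dhh, Prx, Egr2, Myrf, Sox10, Olig2, Pdgfra, Cspg4, Fa2h, Gal3st1, Apod and Fth1 were named after their values were seen, as were the genes called in small lists. Duplicate libraries were checked in 146 within-group pairs: the lowest chi-square per gene was 2.95, above sampling noise.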

Additional observations from a re-analysis of the deposited data

Results flagged for a closer look

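A single library, APP/E4 ND female 7, stood apart from the other 6 of its group in 4 of the 9 genes, by a gap to the nearest library that was larger, as a share of the group's range, than Dixon's 95% critical value. Mbp was at 2785 CPM there, against 1045 to 1444 CPM in the others. Mog was at 104 CPM, against 31.0 to 46.6 CPM. Mobp was at 353 CPM, against 97.9 to 166 CPM. Mal was at 399 CPM, against 125 to 198 CPM. Of 72 groups of values examined these 4 met that criterion, and chance gives about 1 in 20; all 4 came from 1 library, and the 9 genes are correlated. With that library left out, 1 of the 9 genes was called between APP/E4 and APP/E3.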

How the results depend on the processing

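The number of myelin genes called between APP/E4 and APP/E3 over all groups was 4, and 9 of 9 estimates were higher under every setting run. The 9 genes correlate between libraries (median Pearson 0.92), so their shared direction does not count as 9 separate results. The number called was 5 with DESeq2 and with both the read class and the style of the library title in the model. It was 4 with limma voom, without a filter and with read class as a term, and 1 in read class 1 alone. It was 6 without the 3 libraries at the ends, a setting chosen after seeing the data. Of all 15195 genes, the main fit called 1032 in this comparison and DESeq2 called 1217. Totals under the other settings and refits are not reported here, so these counts are not set against them. Leaving out 1 library at a time gave 0 to 7 calls in this comparison, and 0 to 2 within ND females (2 without APP/E3 ND female 4). In the other 13 comparisons no refit without a library called any of the 9. Read class 2 against class 1 called 8 without the 3 libraries, and 0 with them. The median residual SD of the 9 genes was 0.379, 0.303 in read class 1 alone and 0.379 on log2 CPM of total counts. The genotype calls and the read class result thus depend on which libraries enter. So do the spread and the signs of the diet and sex estimates. In read class 1 alone, 9 of 9 estimates of HFD minus ND were above 0, against 1 in the main fit. Without the 3 libraries, 3 of 9 estimates of female minus male were above 0, against 8 in the main fit. The cause was not tested. No paired analysis was possible because replicate numbers were given in deposit order and pair no samples. Single-stratum comparisons had SEs of 0.16 to 0.25 (log2) for these genes. Estimates as large as 0.52 in ND females and 0.50 in ND males, APP/E4 minus APP/E3, were not called there. A missing call in a stratum thus does not show that a difference was absent.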
